A study of Mus musculus with 2 samples.

Results

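The TGF-beta ligand, receptors and Smads described here are 9 genes, taken by name from the 32285 genes of a single-cell RNA table of mouse colon immune cells. They are the ligand Tgfb1, the receptor genes Tgfbr1 and Tgfbr2, the signal carriers Smad2, Smad3 and Smad4, and the inhibitors Smad7, Ski and Skil. The cells were live CD45+ cells, CD45 being the surface protein shared by leukocytes, sorted from the colons of female mice aged 9 months. One library came from 5XFAD mice, in which the neuronal Thy1 promoter drives human transgenes mutated as in inherited Alzheimer disease, and 1 from their wild-type (WT) littermates. Each library pooled the colons of 3 mice, so each genotype is 1 sample. Differences between the genotypes therefore compare 2 libraries, have no replicate check and carry no test.

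TGF-beta1 is secreted as an inactive complex, and once released it binds the type II receptor, which activates the type I receptor. The receptor pair phosphorylates Smad2 and Smad3, which join Smad4 and act in the nucleus with partner transcription factors, while Smad7 acts on the receptors and Ski and SnoN (the product of Skil) act on the Smad complexes as brakes. In the gut the pathway is known for class switching of B cells to IgA, for regulatory T cells and for the residence of lymphocytes in the epithelium.

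Each library held 3443 cells, with 18604847 unique molecular identifiers (UMIs, 1 for each captured RNA molecule) in 5XFAD and 17939499 in WT. The median cell had 5209 UMIs in 5XFAD and 4938 in WT, and 3 cell barcodes occurred in both libraries. In WT 106 cells had 2500 or more detected genes and in 5XFAD none had. The authors' 17 clusters, numbered 0 to 16, were used as deposited. Clusters 0 to 5 held all 7 of the B cell markers used at 50 or more counts per 1000000 UMIs of the cluster (CPM) and are summed as the B cell-like class, with 2364 cells in 5XFAD and 2538 in WT. Cluster 1 was the largest of them in 5XFAD and cluster 0 in WT, and cluster 5, led by the heat shock genes Hspa1a and Hspa1b, had 119 cells in 5XFAD and 396 in WT. By their markers cluster 8 was regulatory T cell-like, cluster 9 ILC2-like (group 2 innate lymphoid cells), cluster 10 T cell-like, cluster 12 NK or ILC1-like, cluster 13 gamma delta T cell-like and cluster 16 ILC3-like. Clusters 6, 7, 11, 14 and 15 are given by number. Clusters 6 and 7 also held 7 of 7 B cell markers, summed to 85.8% to 92.4% of the level in the B cell-like class, but were led by antibody genes (Igha, Jchain) and by activation genes (Egr1, Egr2) and were kept on their own. Values with both added to the class are given beside the results. In clusters 8 to 14 and 16 the summed B cell markers stood at 0.640% to 5.67% of their level in the B cell-like class, higher in WT than in 5XFAD in each (in cluster 10, 0.786% in 5XFAD and 4.65% in WT), and in cluster 15 at 7.15% in 5XFAD and 13.7% in WT. The part of that RNA in the differences between genotypes in these clusters was not tested. No cell type in the data is known to lack all of the 9 genes, so shares of cells with a UMI have no zero reference.

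The levels of the 9 genes are given first, as CPM of the summed UMIs of a cluster, with the value in each library. Clusters are ordered by the mean of both libraries. They are called apart in the order of levels where the ranges between the 2 libraries do not overlap, which leaves counting error aside. The clusters were made from these genes among others, so the levels are descriptions and have no test. They compare clusters within a gene, because UMIs from the 3' end do not give levels per transcript length between genes.

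Tgfb1, the ligand, was highest in 3 clusters with B cell markers and lowest in 3 clusters with T cell markers. It stood at 450.3 CPM in 5XFAD against 425 CPM in WT in cluster 1, which was apart from all others. Cluster 7, led by the activation genes Egr1, Egr2 and Myc, followed with 414 CPM in 5XFAD and 419.9 CPM in WT. At the other end, Tgfb1 reached 154 CPM and 173 CPM in the T cell-like cluster 10 and 112 CPM and 119.5 CPM in cluster 11, which held 7 of 7 T cell and 6 of 7 intraepithelial lymphocyte markers (5XFAD first). Cluster 14, led by Lef1 and Cd8b1, had the lowest level, 69.4 CPM in 5XFAD and 70.7 CPM in WT. These lowest 3 clusters were apart from each other, while among the 12 clusters from rank 4 to rank 15 no neighbours in the order were apart. Clusters further from each other in that stretch could be apart, such as cluster 3 (318 CPM in 5XFAD, 316 CPM in WT) and cluster 4 (294 CPM and 267 CPM).

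The receptor genes had different orders. Tgfbr2, the ligand-binding type II receptor, was highest in cluster 14, at 248 CPM in 5XFAD against 290.2 CPM in WT, the cluster with the least Tgfb1. All other neighbours in the order of Tgfbr2 overlapped, down to the ILC2-like cluster 9 (77.6 CPM in 5XFAD, 100.05 CPM in WT) and the regulatory T cell-like cluster 8 (71.6 CPM in 5XFAD, 96.7 CPM in WT). Tgfbr1, the type I receptor, had its highest value in the mixed myeloid cluster 15, at 47.2 CPM in 5XFAD against 86.0 CPM in WT, a range that overlapped with that of cluster 6. Its lowest values were in the ILC2-like cluster 9, at 16.1 CPM and 16.2 CPM, and the T cell-like cluster 10, at 11.3 CPM in 5XFAD against 14.7 CPM in WT, each apart from the cluster next above it, on 12 and 11 UMIs in cluster 9 and 8 and 9 UMIs in cluster 10 (5XFAD first). Tgfbr1 gave few UMIs, so that it had 50 or more over both libraries in only 1 of the 11 clusters numbered 6 to 16.

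Smad2 and Smad3 carry the signal from the receptors, and Smad4 is the partner they share with the BMP branch. Smad2 ran from 42.2 CPM (mean of both libraries) in cluster 2 to 19.1 CPM in the NK or ILC1-like cluster 12, which were apart, while 0 of the 16 pairs of neighbours in the order were. By the mean, Smad3 was highest in cluster 12, at 50.2 CPM in 5XFAD against 92.5 CPM in WT, followed by the gamma delta T cell-like, T cell-like and ILC3-like clusters with overlapping ranges. The lowest Smad3 levels were 12.5 CPM (mean of both libraries) in cluster 5 and, in cluster 15, 13.6 CPM in WT and 0 UMIs in 5XFAD, which allows up to 15.7 CPM. Smad4 had its highest means in 6 clusters outside the B cell-like class, from 129 CPM in cluster 12 to 103 CPM in cluster 10, but the libraries differed widely in 2 of them. In 5XFAD, Smad4 in clusters 9 (61.5 CPM) and 13 (58.5 CPM) lay below that in cluster 11 (81.5 CPM) and in cluster 2 of the B cell-like class (67.8 CPM), so these 6 were not apart from the rest. Cluster 3 had the lowest mean at 46.3 CPM.

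Among the inhibitors, Smad7 blocks the receptors and is itself a target of the pathway. Its mean was highest in cluster 5, where the libraries were far from each other at 215 CPM in 5XFAD against 383 CPM in WT, and next in cluster 12, where they stood close at 269 CPM in 5XFAD against 265 CPM in WT. In 5XFAD alone cluster 12 was above cluster 5. Its lowest levels were in the ILC2-like cluster 9, at 103 CPM in 5XFAD against 107 CPM in WT, and in cluster 15, at 99.6 CPM in 5XFAD against 45.3 CPM in WT (19 and 10 UMIs). Ski, a nuclear repressor, was highest in the regulatory T cell-like cluster 8 with 102 CPM in 5XFAD and 116 CPM in WT. All clusters outside the B cell-like class except cluster 7 ranked above clusters 0 to 5 for Ski, and the break in the order between 60.6 CPM in cluster 11 and 53.5 CPM in cluster 5 (means of both libraries) lay outside the range of the libraries in both. Skil, which encodes the related repressor SnoN, was highest in the ILC3-like cluster 16 with 453 CPM in 5XFAD and 628 CPM in WT, apart from the NK or ILC1-like cluster 12 with 360.03 CPM in 5XFAD and 397 CPM in WT. Cluster 16 rests on 25 cells in 5XFAD and 17 in WT.

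**Figure D1:**
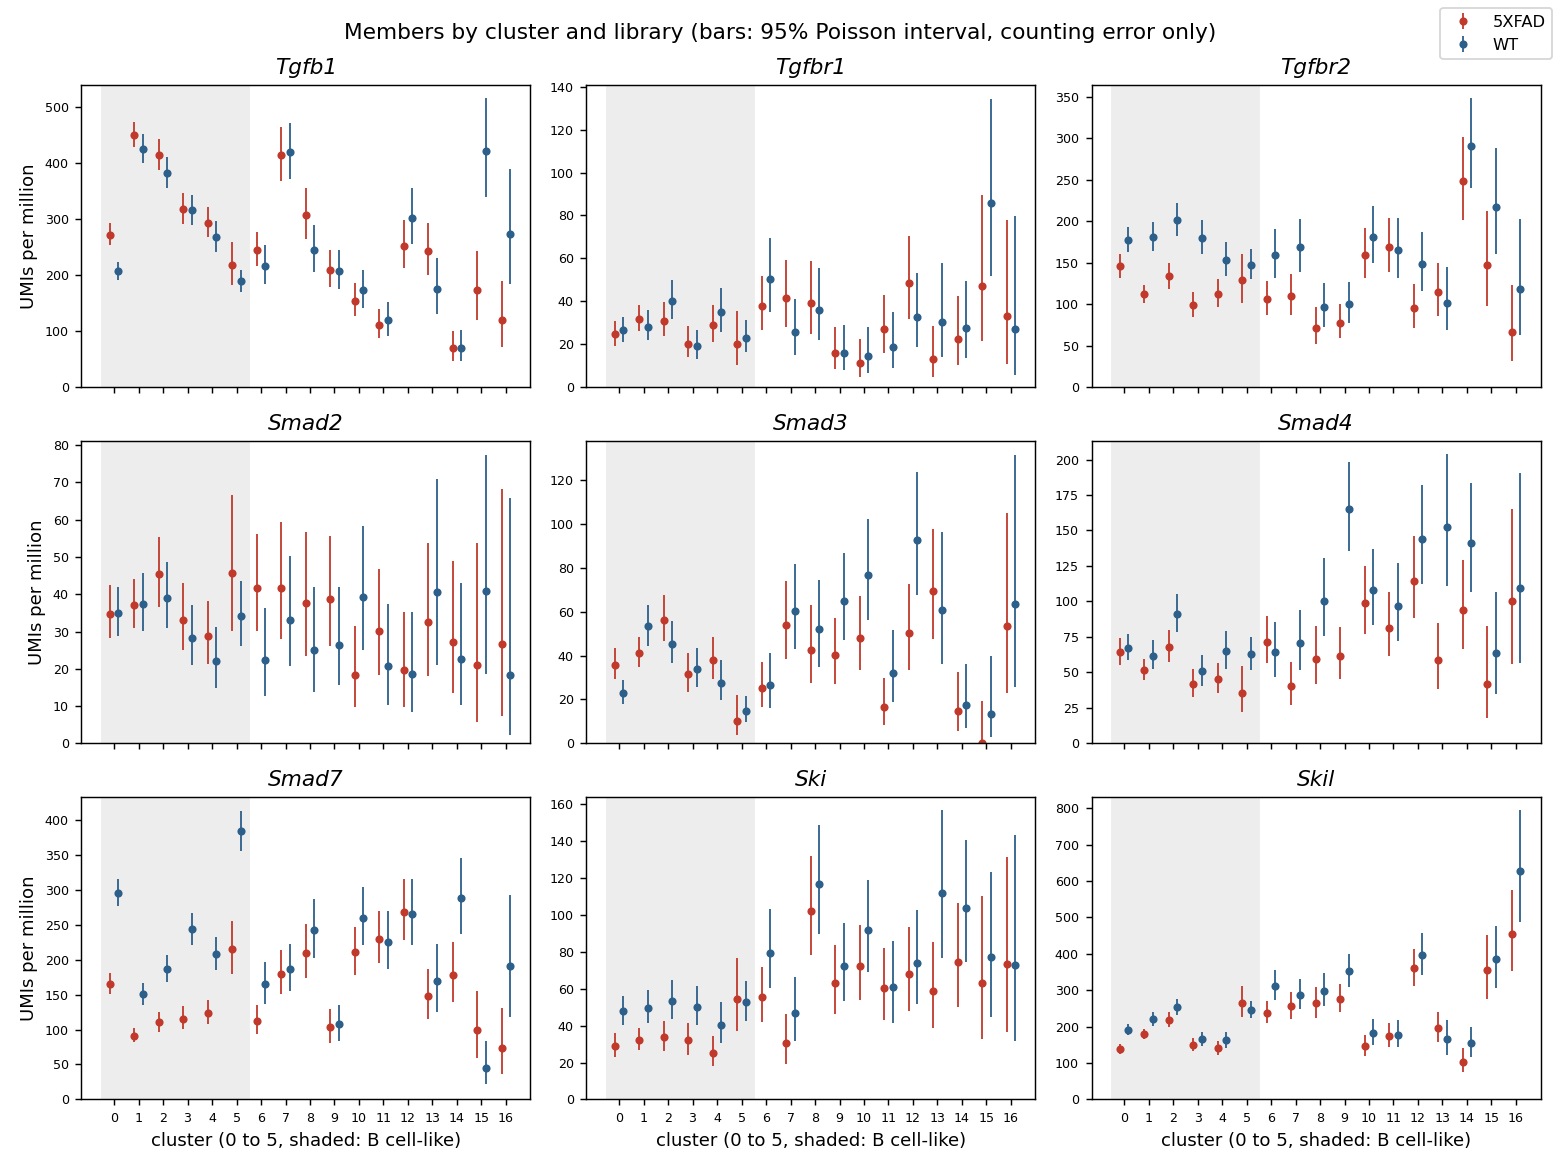
Level of each of the 9 genes (CPM, UMIs of the gene per 1000000 UMIs of the cluster) in the authors' 17 clusters, 1 panel per gene, with 1 point for each library and bars for the exact Poisson 95% interval, which covers counting error only. Cluster 14 has the lowest Tgfb1 (69.4 CPM in 5XFAD and 70.7 CPM in WT) and the highest Tgfbr2 (248 CPM and 290.2 CPM), and for Smad7 the WT points lie above the 5XFAD points in each of clusters 0 to 5.

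Between the genotypes, Smad7 had the largest difference of the 9 genes in the B cell-like class. Ratios are log2 of 5XFAD over WT CPM with an exact 95% interval of counting error, and a gene is called lower or higher when it is past 1.5-fold with the interval on 1 side of no change and has 50 or more UMIs. Smad7 stood at 125 CPM in 5XFAD (1551 UMIs) against 246 CPM in WT (3116 UMIs), a log2 ratio of -0.97 (-1.06 to -0.88). Ski stood at 31.8 CPM in 5XFAD against 49.2 CPM in WT, a log2 ratio of -0.63 (-0.82 to -0.45). Of the 9 genes, these 2 were called lower and 0 higher among the 9681 genes entered (those with enough UMIs), of which 14.2% were called lower and 4.37% higher. Against that background the count of 2 is not read as a result about the list. The median log2 ratio of the 9 was -0.28, beside -0.12 over all genes entered. By role, the called pair are both inhibitors, and the third inhibitor, Skil, had 171 CPM in 5XFAD and 208 CPM in WT, a log2 ratio of -0.28 (-0.36 to -0.20) that was not called.

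The ligand and the carriers showed smaller differences, and none of them was called. Tgfb1 had 353 CPM in 5XFAD and 296 CPM in WT, a log2 ratio of 0.25 (0.19 to 0.31). Smad3 had 39.2 CPM in 5XFAD and 33.3 CPM in WT, a log2 ratio of 0.24 (0.05 to 0.43), and Smad2 had 36.7 CPM and 33.5 CPM, a log2 ratio of 0.13 (-0.06 to 0.33). For Smad2 the interval spans no change, so no difference was detectable at this depth. Smad4 had 54.3 CPM in 5XFAD and 66.8 CPM in WT, a log2 ratio of -0.30 (-0.45 to -0.15). The receptor Tgfbr2 had 122 CPM in 5XFAD and 176 CPM in WT, a log2 ratio of -0.52 (-0.62 to -0.43), short of 1.5-fold. Tgfbr1 had 27.5 CPM and 28.4 CPM, a log2 ratio of -0.05 (-0.27 to 0.17).

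The ratios moved with transcript length across all genes, which touches several of the 9. Across the 9600 genes of the B cell-like class with a known length, Spearman's rho between the longest annotated transcript and the log2 ratio was -0.42, a description across genes, and the median log2 ratio was 0.21 in the shortest 10% of genes and -0.41 in the longest 10%. The longest transcript runs from 2573 bases for Tgfb1 to 8092 bases for Tgfbr2, with 4278 bases for Smad7 and 5522 bases for Ski. Relative to the median of genes of like length (in the same 10% by length), Smad7 stood at -0.79 and remained past 1.5-fold, while Ski stood at -0.29 and Tgfbr2 at -0.11, short of it. On the same scale Smad2 stood at 0.54, Smad3 at 0.49, Tgfb1 at 0.30 and Tgfbr1 at 0.29, and Skil was above 0 at 0.12. Of the 9 genes 6 had a ratio below 0 when scaled to all UMIs, 5 when the median of all genes was set to 0, and 4 against genes of the same length, so the direction of the list depended on the scaling. Smad7 was below 0 on all 3 scales, and 4.07% of the genes entered had a lower ratio than it.

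**Figure D2:**
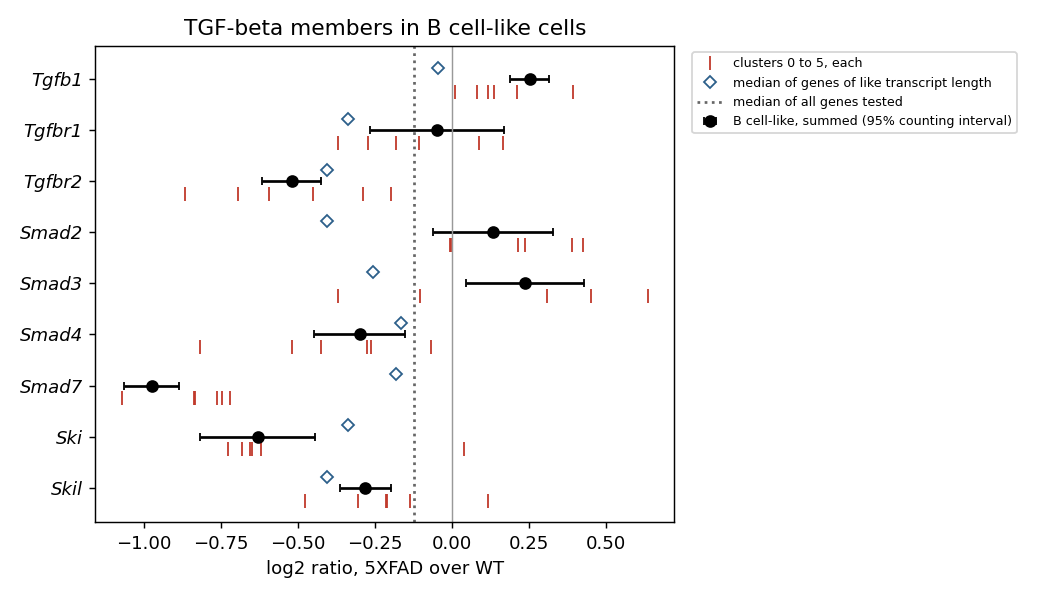
Log2 ratio of 5XFAD over WT (x axis) for the 9 genes (rows) in the B cell-like class: black points with the exact 95% counting interval for the summed class, red ticks for clusters 0 to 5 one by one, open diamonds for the median of all genes of like transcript length and a dotted line for the median of all genes. The Smad7 point lies at -0.97, left of its diamond, and its ticks run from -1.07 to -0.72, while the Tgfbr2 point lies close to its diamond.

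Within the B cell-like class the genes differed in how evenly the 6 clusters shared a difference. Smad7 was called lower in 6 of 6 clusters, with log2 ratios of -0.84, -0.72, -0.76, -1.07, -0.74 and -0.83 in clusters 0 to 5. Against genes of the same length all 6 stayed below 0, from -0.84 to -0.51, and 4 were past 1.5-fold. In cluster 3 it stood at 116 CPM in 5XFAD against 243 CPM in WT, and in cluster 1 at 91.3 CPM in 5XFAD against 150.4 CPM in WT, and the WT level was above the 5XFAD level in every one of the 6. The share of all genes called lower in these clusters was 13%, 13.1%, 8.62%, 14.4%, 12.6% and 12.2%, and the share called higher 6.93%, 3.59%, 4.9%, 5.18%, 5% and 7.79%. Over all cells of all clusters Smad7 was the 1 gene of the 9 called, at 141 CPM in 5XFAD against 232 CPM in WT and a log2 ratio of -0.72 (-0.79 to -0.65), where 10.8% of genes were called lower and 4.5% higher. Because cluster 5 is high in Smad7 and holds more WT than 5XFAD cells, the class was also computed without it, which gave -0.88, and with clusters 0 to 5 at equal weight, which gave -0.84. With clusters 6 and 7 added, an alternative chosen after seeing the data, it was -0.91 for Smad7 and -0.60 for Ski, both still called. Ski was called lower in clusters 0 to 4, at -0.73 to -0.62, though in none of them past 1.5-fold against genes of the same length, and in cluster 5 it had 54.2 CPM in 5XFAD and 52.7 CPM in WT, a log2 ratio of 0.04. With equal weights the ratio of Ski for the class was -0.51 and no longer past 1.5-fold.

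Tgfbr2 lay below 0 in 6 of 6 clusters, or 3 against genes of the same length, and was called lower in clusters 1, 2 and 3, at -0.69, -0.59 and -0.87. In cluster 3 its levels were 98.8 CPM in 5XFAD and 180.1 CPM in WT, while against genes of the same length the 3 ratios were -0.23, -0.27 and -0.38, none past 1.5-fold. Smad4 was below 0 in all 6 on each of the 3 scales, but close to 0 in cluster 0. Scaled to all UMIs it ran from -0.82 in cluster 5 to -0.07 in cluster 0. Only in cluster 5 was it called, at 35.6 CPM in 5XFAD (21 UMIs) and 62.6 CPM in WT (114 UMIs). In cluster 0 its interval spanned no change (-0.36 to 0.22). There it stood at -0.003 with the median of all genes set to 0 and at -0.04 against genes of the same length. Tgfb1 was below 0 in 0 of 6 clusters on each scale, with ratios from 0.01 to 0.39 before any subtraction. Smad3 did not share a direction among the clusters. It was called higher in cluster 0, at 35.8 CPM in 5XFAD against 23.1 CPM in WT, a log2 ratio of 0.64 (0.19 to 1.09), where 6.93% of all genes were called higher, and was below 0 in 2 of the 5 clusters with enough UMIs, or in 1 against genes of the same length.

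The start regions of Tgfb1, Tgfbr2 and Ski are shown as those of the ligand, of its binding receptor and of an inhibitor, of which only Ski was called in the B cell-like class. Each is the 250 bases before the gene's start in RefSeq (GRCm38.p6), 5' to 3' on the gene's strand, which for Tgfb1 is chr7:25686752-25687001 on the plus strand, for Tgfbr2 chr9:116175364-116175613 on the minus strand and for Ski chr4:155222536-155222785 on the minus strand. Capitals mark CAGAC or GTCTG, the Smad-binding motif on either strand, which 42.2% of the 32851 promoter windows of that length held.
Tgfb1: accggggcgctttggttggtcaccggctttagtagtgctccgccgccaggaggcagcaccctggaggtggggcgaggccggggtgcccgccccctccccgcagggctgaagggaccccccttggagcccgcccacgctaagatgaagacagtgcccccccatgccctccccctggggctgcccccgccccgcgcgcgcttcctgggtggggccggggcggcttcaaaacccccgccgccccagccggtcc
Tgfbr2: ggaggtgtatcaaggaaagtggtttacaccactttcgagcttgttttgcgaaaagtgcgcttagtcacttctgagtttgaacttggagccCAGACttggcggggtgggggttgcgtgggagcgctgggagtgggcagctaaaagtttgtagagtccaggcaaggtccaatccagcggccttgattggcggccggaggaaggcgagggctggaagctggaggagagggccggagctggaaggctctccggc
Ski: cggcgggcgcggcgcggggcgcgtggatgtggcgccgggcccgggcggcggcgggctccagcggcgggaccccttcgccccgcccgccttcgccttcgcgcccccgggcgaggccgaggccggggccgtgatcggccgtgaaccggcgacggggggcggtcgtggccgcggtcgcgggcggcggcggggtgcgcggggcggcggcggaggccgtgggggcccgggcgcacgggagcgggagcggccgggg
Tgfbr2 held 1 match, its first base at -160 from the start, and Tgfb1 and Ski held 0. The GC content was 75.2% for Tgfb1, 58.4% for Tgfbr2 and 87.6% for Ski, beside a median of 52.4% over all windows. Of the 9 genes, Tgfbr1 and Smad3 also had windows that were matched. The matching left out all windows of 1 chromosome, which the 32851 windows of the background kept. Smad2, Smad4, Smad7 and Skil had no window among those searched, which does not show that they lack one. For Tgfbr1 the window at chr4:47385966-47386215 held 1 match, its first base at -203, and that at chr4:47352972-47353221 held 0. The Smad3 window held 0. A match describes the letters of a window and does not show binding.

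The difference in Smad7 was also seen in the share of cells with a UMI, after each cell was thinned to 3000 UMIs and shallower cells were left out (60 in 5XFAD and 124 in WT over all clusters). In the B cell-like class 28.8% of 2327 5XFAD cells (Clopper-Pearson 95% interval 26.96% to 30.7%) and 45.6% of 2454 WT cells (43.7% to 47.6%) had a Smad7 UMI. Unthinned, the shares were 40.4% and 57.6%. For Tgfbr2 the thinned shares were 28.6% in 5XFAD and 39.04% in WT, for Ski 8.94% and 13.1%, for Skil 37.1% and 42.6%, and for Tgfb1 58.9% and 53.8%. These 5 genes had intervals that did not overlap, and Tgfb1 was the only one of them with the higher share in 5XFAD. Such intervals were not computed for all genes, so the count of 5 has no background and is not read as a result about the list. Both receptor genes were seen together in few thinned cells, 50 of 2327 (2.15%) in 5XFAD and 74 of 2454 (3.02%) in WT. None of the 9 genes was detected in 8.47% of the 5XFAD and 4.44% of the WT cells. All these intervals cover counting error only.

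Outside the B cell-like class, 67 pairs of a gene and a cluster had 50 or more UMIs, of which 11 were called lower and 1 higher. Over all genes entered, the share called lower was 9.46%, 13.8%, 7.89%, 7.53%, 8.63%, 6.63%, 7.9%, 5.3%, 9.74%, 20.5% and 8.73% in clusters 6 to 16. The share called higher was 6.72%, 6.44%, 6.01%, 5.34%, 5.05%, 5.48%, 4.72%, 6.33%, 4.22%, 14.8% and 9.28%. Smad4 gave 4 of the 11, in clusters 7, 8, 9 and 13, and was below 0 in 8 of the 9 clusters where it entered, on each of the 3 scales. In the ILC2-like cluster 9 it stood at 61.5 CPM in 5XFAD (46 UMIs in 35 of 129 cells) against 165 CPM in WT (112 UMIs in 50 of 108 cells), a log2 ratio of -1.42 (-1.95 to -0.91). Without the cell with the most Smad4 UMIs in each library, 4 in 5XFAD and 10 in WT, the ratio was -1.41. In thinned cells the share with a Smad4 UMI was 13.2% (7.87% to 20.3%) in 5XFAD and 34.0% (25.04% to 43.8%) in WT. In the same cells Smad7 had 103 CPM in 5XFAD and 107 CPM in WT, and Tgfb1 had 210.05 CPM and 207 CPM.

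In the gamma delta T cell-like cluster 13, Smad4 had 58.5 CPM in 5XFAD (27 UMIs) and 152 CPM in WT (45 UMIs), a log2 ratio of -1.38 (-2.12 to -0.66). Ski was called there too, at 58.5 CPM and 112 CPM, a log2 ratio of -0.93 (-1.72 to -0.15), but stood at -0.39 in thinned cells and was then not called. In the regulatory T cell-like cluster 8, Smad4 had 59.7 CPM in 5XFAD and 100.3 CPM in WT, a log2 ratio of -0.75 (-1.40 to -0.11). In cluster 7 it had 40.2 CPM and 70.7 CPM, a log2 ratio of -0.82 (-1.54 to -0.12). The Smad4 calls in clusters 7, 8, 9 and 13 remained under each other scaling, depth and cell filter tried at 1.5-fold, and Smad4 against genes of the same length was -0.75, -0.73, -1.39 and -1.36. The NK or ILC1-like cluster 12, with the highest mean of Smad4, had 115 CPM in 5XFAD and 144 CPM in WT, a log2 ratio of -0.33 that was not called. Whether Smad4 differed more in one cluster than in another was not tested.

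The other 7 lower calls came from 5 genes, Ski in cluster 13 being 1 of them. In cluster 12, Smad3 had 50.2 CPM in 5XFAD and 92.5 CPM in WT, a log2 ratio of -0.88 (-1.62 to -0.17), and Tgfbr2 had 94.9 CPM and 148 CPM, a log2 ratio of -0.64 (-1.18 to -0.11). Against genes of the same length both were no longer called, at -0.68 and -0.31, and in thinned cells Smad3 was not (-0.77). Smad3 in the T cell-like cluster 10, at 48.03 CPM in 5XFAD against 76.8 CPM in WT, had a log2 ratio of -0.68 and was not called against genes of the same length (-0.44) or with the median of all genes set to 0 (-0.64). In cluster 10 summed markers of other cells differed too, in both directions. The 7 intraepithelial lymphocyte markers summed to 137 CPM in 5XFAD and 569 CPM in WT, and the 8 NK or ILC1 markers to 860.4 and 1435 CPM. The 8 ILC2 markers summed to 171 and 438 CPM and the 7 B cell markers to 41.0 and 250.05 CPM. Among those higher in 5XFAD were the 8 ILC3 markers (1091 and 739 CPM) and the 7 regulatory T cell markers (1524 and 1116 CPM). The part of all these cells in the Smad3 value was not tested. Tgfbr2 in cluster 7, at 109 CPM and 169 CPM, had a log2 ratio of -0.62, which became -0.10 against genes of the same length, -0.55 with the median of all genes set to 0 and -0.49 in thinned cells, none of them called. Smad7 was called lower outside the B cell-like class in cluster 14 alone, at 179 CPM in 5XFAD against 288 CPM in WT, a log2 ratio of -0.69 (-1.13 to -0.25), and it was not called against genes of the same length (-0.53) or in thinned cells, at -0.59 with an interval across no change. In cluster 6, which is led by Igha and Jchain and holds 7 of 7 B cell markers, Smad7 had 112 CPM in 5XFAD and 165 CPM in WT, a log2 ratio of -0.55 (-0.93 to -0.17), short of 1.5-fold. In cluster 7, which holds the same B cell markers, Smad7 had 180.01 CPM in 5XFAD and 187 CPM in WT, a log2 ratio of -0.05 (-0.42 to 0.31), so the difference of clusters 0 to 5 was not seen there in CPM. The share of its thinned cells with a Smad7 UMI was 34.7% in 5XFAD (26.4% to 43.7%) and 43.9% in WT (35.0% to 53.1%), lower in 5XFAD with overlapping intervals.

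The single higher call was Smad2 in cluster 6, with 43 UMIs in 5XFAD and 16 in WT, a log2 ratio of 0.90 (0.04 to 1.83), and in thinned cells it was not called (0.72). In cluster 15, Tgfb1 had 173 CPM in 5XFAD (33 UMIs in 15 of 32 cells) and 421 CPM in WT (93 UMIs in 25 of 37 cells), a log2 ratio of -1.28 (-1.90 to -0.70). That cluster held markers of several cell types. Its 5 neutrophil markers summed to 0 CPM in 5XFAD and 1168 CPM in WT, its 9 macrophage or monocyte markers to 7158 and 11408 CPM, its 8 stromal or endothelial markers to 2014 and 742 CPM and its 6 epithelial markers to 933 and 407 CPM. Their part in the Tgfb1 difference was not tested. Skil was below 0 in 10 of the 11 clusters numbered 6 to 16, with 0 calls, but in 5 against genes of the same length. Ski was below 0 in 9 of the 9 where it entered, with 1 call, and in 7 against genes of the same length.

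**Figure D3:**
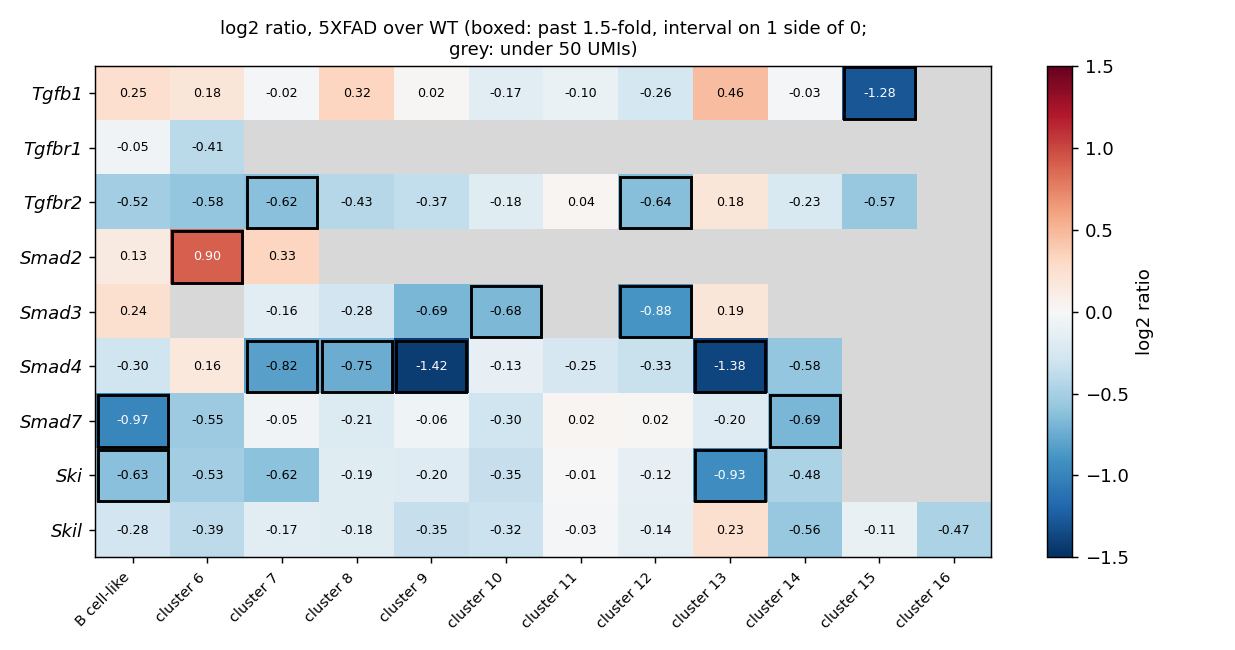
Log2 ratio of 5XFAD over WT (colour and printed value) for the 9 genes in the B cell-like class and clusters 6 to 16, with called pairs boxed and pairs under 50 UMIs in grey. Smad4 is called in clusters 7, 8, 9 and 13, with its lowest value, -1.42, in the ILC2-like cluster 9.

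Of 70 further genes of the pathway, 42 had enough UMIs in the B cell-like class, and 6 were called lower and 3 higher, close to the 14.2% lower and not far above the 4.37% higher over all genes entered. Their median log2 ratio was -0.24, beside -0.12 over all genes entered. Of the 42, 31 lay below 0. This became 27 with the median of all genes set to 0 and 25 against genes of the same length. Of all genes entered, 57.2% had a lower ratio than Tgfbr1, which stood at -0.05. Among the modulators of the signal all 14 entered and all 14 lay below 0, with a median of -0.33 and 3 called, but 11 did with the median of all genes set to 0 and 8 against genes of the same length. Sptbn1, a spectrin that serves as an adaptor for Smads, had 76.8 CPM in 5XFAD and 150.5 CPM in WT, a log2 ratio of -0.97, or -0.56 and not called against genes of the same length. Mapk14, the p38 kinase of the Smad-independent branch, had 8.96 CPM in 5XFAD and 27.8 CPM in WT, a log2 ratio of -1.63 (-1.95 to -1.32). Trim33, a ubiquitin ligase that binds Smads, was at -0.59, at the edge of the call, and was not called with the median of all genes set to 0 (-0.46), against genes of the same length (-0.18), in thinned cells (-0.53), in cells under 2500 genes (-0.58), without cluster 5 (-0.52), at equal cluster weight (-0.57) or with clusters 6 and 7 (-0.58). The nuclear partners of the Smads gave 9 entered genes, all below 0 on those 3 scales and 0 called, with a median of -0.45. Among them were Runx1 at -0.58 and the acetyltransferase gene Crebbp at -0.56. Outside the class Runx1 was called lower in clusters 12, 14 and 15 and Crebbp in clusters 7 and 15, beside the shares of all genes given above. In the BMP and activin branch 5 genes entered and 3 were called lower, Smad5 (-0.96), Smad1 (-0.76) and the activin receptor gene Acvr1b (-0.71), beside the 14.2% of all genes. Acvr1b was not called with the median of all genes set to 0 (-0.58), against genes of the same length (-0.53), in thinned cells (-0.49) or without cluster 5 (-0.55).

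The target genes of the pathway lay on both sides. Of 7 with enough UMIs in the B cell-like class, 0 were called lower and 2 higher, beside 14.2% lower and 4.37% higher over all genes entered. Of the 7, 2 lay below 0, or 4 against genes of the same length. These few genes are not read as a result about the targets as a group. Id2, an inhibitor of helix-loop-helix transcription factors, had 56.0 CPM in 5XFAD and 26.4 CPM in WT, a log2 ratio of 1.09 (0.90 to 1.28). Outside the class Id2 was called higher in clusters 7 and 13. Pmepa1, a target that in turn restrains the pathway, had 80.9 CPM in 5XFAD and 44.7 CPM in WT, a log2 ratio of 0.85 (0.70 to 1.01). Smad7, itself a known target, was on the other side in the same cells, with fewer UMIs in 5XFAD. Pmepa1 was above 0 in every cluster numbered 6 to 16 in which it entered and was called higher in clusters 11 and 15. Among ligand genes Tgfb3 was called higher, at 19.5 CPM in 5XFAD against 12.8 CPM in WT, a log2 ratio of 0.61, but not without cluster 5 (0.54), at equal cluster weight (0.53) or with clusters 6 and 7 (0.51). Among receptor partners Strap was at 0.56 and not called in the class, and was called higher in clusters 6 and 7. In the other clusters 227 pairs of a further pathway gene and a cluster entered, of which 19 were called lower and 12 higher, where 5.3% to 20.5% of all genes were called lower and 4.22% to 14.8% higher. These counts are not read as a result about the pathway.

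**Figure D4:**
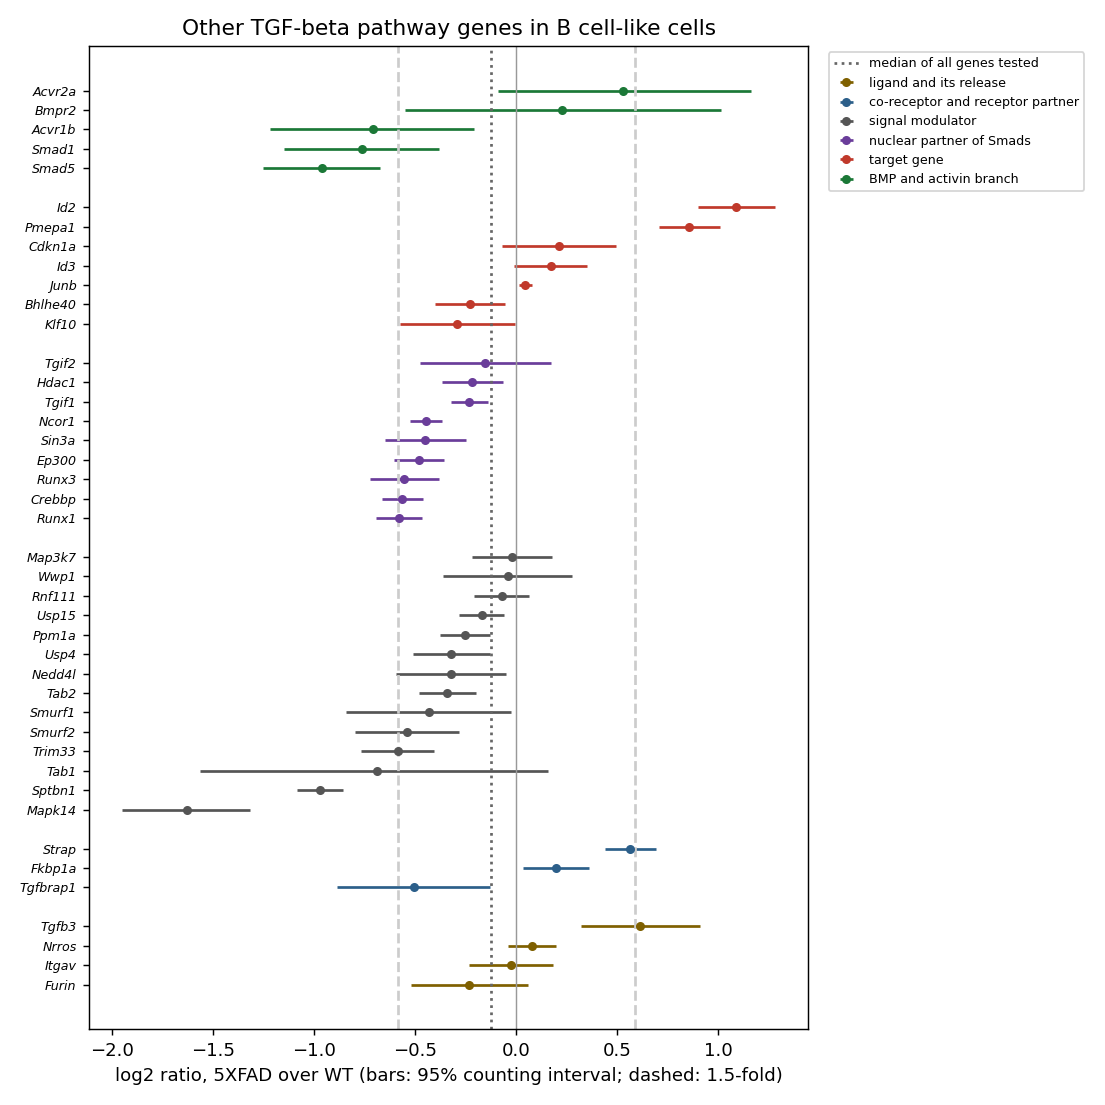
Log2 ratio of 5XFAD over WT (x axis) in the B cell-like class for the 42 further pathway genes with 50 or more UMIs, grouped and coloured by role, with bars for the exact 95% counting interval, dashed lines at 1.5-fold and a dotted line at the median of all genes. The 14 modulators and 9 nuclear partners all lie below 0 on this scale (8 and 9 of them against genes of the same length), while Id2 (1.09) and Pmepa1 (0.85) lie above.

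Across the 17 clusters, the 9 genes shared little of their pattern. The correlations that follow are descriptions over 17 clusters that share 2 libraries, on log2(CPM + 10) of both libraries together. Smad4 and Ski were the most alike pair (Pearson's r = 0.67), and the least alike were Tgfb1 and Smad4 (-0.58), Tgfbr2 and Smad3 (-0.57) and Tgfbr2 and Skil (-0.57). Among 4857 genes ranked, those most like Smad4 included Aak1 (0.91) and Txk (0.91), of which Txk encodes a kinase of T cell receptor signalling. For Smad7 they were Arhgap15 (0.86), Kif21b (0.85) and Ankrd44 (0.83), and for Tgfb1 Naa50 (0.89), Pdia6 (0.89) and Crlf2 (0.87). Tgfbr2 was most like Rasa3 (0.84), Stk38 (0.78) and Zbtb11 (0.76), and Tgfbr1 like Slirp (0.83), Hivep3 (0.80) and Lacc1 (0.79). For Smad3 they were AI662270 (0.89), Arfrp1 (0.86) and Rock1 (0.86), and for Smad2 Caprin1 (0.79), Fdps (0.78) and Irf4 (0.77). Ski was most like H2afz (0.90), Arl4c (0.89) and Fas (0.89), and Skil like Stt3a (0.89), Zmiz1 (0.88) and Ccnl1 (0.87). With Spearman's rho 11 of the 27 genes so ranked, 3 for each of the 9, stayed among the most alike, and with the 14 clusters of 50 or more cells in each library 6 did.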

How the data were processed

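Libraries were made with the 10x 3' v3.1 chemistry, per the labels' protocols, and Cell Ranger 6.0.1 and mm10 are named in the submitters' processing notes. The authors' deposited expression values are on a natural log scale, in steps that fit counts scaled to 10000 UMIs a cell. UMI counts were recovered from them here, with 100% of values whole within 1e-06 and the sums of all 6886 cells equal to the deposited total count per cell. The authors' deposited SCT table served as an alternative. The deposited percent of mitochondrial reads had a median of 4.84% in 5XFAD and 4.91% in WT and was not used further. The library labelled AD in the table was taken as 5XFAD, the only library that is not WT. How cells were filtered, clustered and cleared of doublets is not given in the sources used here, and no doublets were called.

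Counts were summed by cluster and library with Python 3.11.15, numpy 2.4.6 and scipy 1.17.1. With 1 library a genotype no test was made. Log2 ratios carry exact conditional binomial, levels exact Poisson and shares Clopper-Pearson 95% intervals, all of counting error only. In the medians and ranks of ratios over all genes, a 0 was taken as 3 counts. The script was tested on simulated data. Lengths come from GENCODE. Alternatives were scaling, length, thinning to 3000 UMIs, cells under 2500 genes, equal cell weight, leaving out top cells or cluster 5, adding clusters 6 and 7 (chosen after seeing the data), the SCT table and the thresholds. The 9 genes and all lists were chosen with earlier results of these data known. All 9 genes are named, with up to 10 further pathway genes called in the B cell-like class or in the same direction in 2 other clusters, ordered by the interval bound nearest no change, and the 3 genes most like each of the 9, of which 1 is not reported here. Tgfb3 and Acvr1b are beyond that rule and were named after their values were seen.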

Additional observations from a re-analysis of the deposited data

Results flagged for a closer look

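Sptbn1, the spectrin that serves as an adaptor for Smads, stood on both sides of no change. Its log2 ratio of 5XFAD over WT was -0.97 in the B cell-like class, -0.81 in cluster 6, -1.14 in cluster 7, -0.66 in the regulatory T cell-like cluster 8 and -0.75 in the NK or ILC1-like cluster 12, all called lower, and 0.79 in the mixed cluster 15, called higher. The difference between the clusters was not tested. In cluster 15 the summed stromal or endothelial markers were 2014 CPM in 5XFAD and 742 CPM in WT, and their part in the Sptbn1 value was not tested.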

How the results depend on the processing

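No paired analysis was possible because each genotype is 1 pooled library, and for the same reason no replicate could be left out. Of 559 recomputed values of the 76 ratios of the 9 genes, 535 moved by less than their counting interval, 24 moved by more and 0 changed the sign of a called value. The 2 genes called lower in the B cell-like class became 1 with the median of all genes set to 0, 1 against genes of the same length, 1 in thinned cells, 1 at equal cluster weight, 5 by the interval alone and 0 past 2-fold, and the 0 called higher became 2 by the interval alone. Smad7 was the gene that remained at 1.5-fold. Adding clusters 6 and 7 to the class, chosen after seeing the data, left 2 and 0 calls. Of the other clusters' pairs, the 11 called lower became 9 with the median set to 0, 6 against genes of the same length and 3 past 2-fold, and the 1 called higher became 2 against genes of the same length, 0 in thinned cells, 2 in cells under 2500 genes and 0 past 2-fold. Of the further pathway genes in the B cell-like class, the 6 called lower became 4 with the median set to 0, 3 by length, 24 by the interval alone and 1 past 2-fold, and the 3 called higher became 5 with the median set to 0, 5 by length, 5 with no UMI minimum, 6 by the interval alone and 1 past 2-fold. The share of all genes called was computed only for the main rule (past 1.5-fold, scaled to all UMIs). Counts under the other rules therefore have no background and are not read as results about the list or the pathway. Of the 27 most alike genes, 11 were shared with Spearman's rho and 6 with clusters of 50 or more cells. The cluster with the highest level was the same for 9 of 9 genes with equal cell weight and for 7 in the SCT table, where Smad2 was highest in cluster 13 and Smad4 in cluster 14. Depth limits Tgfbr1, Smad2 and Smad3 most.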
